A study of Mus musculus with 3 samples.

Results

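The genes described here encode the nuclear subunits of the mitochondrial respiratory chain and of ATP synthase, measured in mouse inguinal lymph nodes after treatment with 1 of 2 vitamin D3 hydroxyderivatives. They were chosen by symbol from the deposited gene table: every locus that carries an Ndufa, Ndufb, Ndufc, Ndufs or Ndufv symbol with a number, Sdha to Sdhd, a Uqcr, Cox4 to Cox8 or Atp5 symbol, Cycs or Cyc1, without the brown fat isoforms Cox8b and Cox7a1. The rule found 89 of 46951 loci. Each of 3 libraries came from inguinal nodes of male C57BL/6j mice whose abdominal skin had been painted with DNFB, a hapten that sensitizes the skin, so all 3 groups carry that exposure. From 3 days later the vehicle group received ethanol intraperitoneally, and each of the other groups received its compound, 20(OH)D3 in 1 and 25(OH)D3 in the other, at a daily 4 µg per kg. The treatment protocol gives 4 injections, 1 a day, with nodes taken 24 hours after the final one, whereas the series text gives 1 week of treatment. Each group is 1 library, and the labels do not say how many animals it holds, so no difference has a replicate check and no p-value is given. All intervals below cover counting error only, because reads from 1 library are not independent animals, and PCR copies are not independent molecules. Females of the same study were not analysed here.

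Complex I (NADH dehydrogenase) and complex II (succinate dehydrogenase) pass electrons from metabolic fuels to ubiquinone, complex III passes them to cytochrome c, and complex IV (cytochrome c oxidase) passes them to oxygen. Complexes I, III and IV pump protons across the inner mitochondrial membrane, and ATP synthase uses the returning protons to make ATP. Most subunits are encoded in the nucleus and imported, while the mitochondrial genome encodes part of the core of every complex except complex II. Resting lymphocytes have few mitochondria for their size and add more on activation, and fat, above all brown fat, is rich in them.

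Promoters of respiratory chain genes are known for sites of NRF1, a transcription factor that was first described on the cytochrome c gene. In RefSeq's GRCm38.p6 promoters, 68 windows of the 250 bases before the gene start were found for 63 members of the loci, and 14 of them (20.6%) held the NRF1 core (GCGCA, any base N, then GCGC) on either strand, against 3.74% of all 32851 windows. The 3 windows shown are those with more than 1 match, and their genes behaved differently: Ndufb4 was among the members that differed most between libraries, Sdha among those that differed least, and Cox6a1 lay between them. The windows are at chr16:37654369-37654618, chr13:74350241-74350490 and chr5:115348959-115349208, all on the minus strand, and capitals mark the NRF1 core.
Ndufb4: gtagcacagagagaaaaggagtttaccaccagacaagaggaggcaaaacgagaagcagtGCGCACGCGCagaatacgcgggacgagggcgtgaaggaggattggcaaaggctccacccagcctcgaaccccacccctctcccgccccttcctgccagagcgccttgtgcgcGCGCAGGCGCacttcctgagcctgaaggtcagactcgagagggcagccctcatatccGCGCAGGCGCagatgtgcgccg
Sdha: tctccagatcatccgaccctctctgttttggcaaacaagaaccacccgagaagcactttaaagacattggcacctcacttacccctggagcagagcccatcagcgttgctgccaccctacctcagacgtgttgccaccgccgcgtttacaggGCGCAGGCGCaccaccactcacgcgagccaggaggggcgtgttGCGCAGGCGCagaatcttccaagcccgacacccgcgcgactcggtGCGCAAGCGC
Cox6a1: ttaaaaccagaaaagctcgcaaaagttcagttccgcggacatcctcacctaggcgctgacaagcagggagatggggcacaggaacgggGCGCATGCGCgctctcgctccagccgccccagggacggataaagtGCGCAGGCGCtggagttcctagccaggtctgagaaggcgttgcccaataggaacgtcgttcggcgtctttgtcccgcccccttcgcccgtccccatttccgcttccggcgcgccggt
Ndufb4 and Sdha each held 3 matches and Cox6a1 held 2. Of the member genes at least 1.5-fold above vehicle with 20(OH)D3, 8 of 35 held the core, and 5 of the other 28 did. The ETS motif CCGGAAG was in 12 of the 68 windows (17.6%, against 6.91% of all windows), the ERR motif CAAGGTCA in 3 (4.41%, against 1.33%), and the YY1 motif (AAGATG directly followed by GCGGC) in none (against 0.207%), each sought on both strands. The member windows had a median GC content of 56.4%, and all windows 52.4%. A match is only a stretch of letters, and binding was not measured.

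The libraries held 8226431 reads for vehicle, 7522550 for 20(OH)D3 and 7991748 for 25(OH)D3, in the order in which every set of 3 values below is given. Normalized counts are those reads times 1 scale factor a library, and they are used for ratios between libraries. FPKM, the fragments of a gene scaled to its transcript length and to the depth of the library, is used for levels between genes. Of the 89 loci, 80 passed a filter of a mean of 20 normalized counts over the libraries, as 12923 loci did in all. The 9 others were 6 pseudogenes with 0 or 1 read a library, Cox7b2 and Cox8c with no read, and Cox6b2, a testis isoform, with 17, 19 and 13 reads. Of the T cell and B cell markers, 13 of 13 and 10 of 10 passed the filter. All 15 of 15 adipocyte markers passed it too, so passing does not tell node tissue from fat. 4 members sit in a locus merged with another gene and may hold its reads: Ndufb2 with Adck2, Ndufb8 with Sec31b, Atp5g2 with Mir688 and Atp5o with Donson. The sources used here do not give the strand setting of the counting, and processed pseudogenes resemble many of these short messages, so some reads could have been assigned to the wrong copy.

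In the vehicle node the member messages ranged from 2.77 FPKM for Ndufa4l2 to 477 FPKM for Atp5b, the catalytic beta subunit of ATP synthase, with a median of 91.0 FPKM. The median was 138 FPKM with 20(OH)D3 and 127 FPKM with 25(OH)D3. By the mean over the 3 libraries, the highest levels after Atp5b belonged to complex IV: Cox8a had 347, 641 and 581 FPKM, Cox6c 225, 861 and 370.2 FPKM and Cox6a1 267, 461 and 423 FPKM. All 3 are small nuclear-encoded subunits around the catalytic core of the oxidase, and each was lowest in vehicle and highest with 20(OH)D3. Per complex, the median in vehicle was 60.8 FPKM for complex I, 66.9 for complex II, 121 for complex III, 149 for complex IV and 156 for ATP synthase. With 20(OH)D3 these medians were 108, 96.3, 245, 307 and 251 FPKM, and with 25(OH)D3 89.9, 92.6, 192, 220.0 and 192 FPKM. Complex IV thus had the highest median with either compound, where ATP synthase had it in vehicle.

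The members together took 0.663% of all reads in vehicle (54522 reads, exact 95% binomial interval 0.657% to 0.668%). They took 0.959% with 20(OH)D3 (0.953% to 0.966%) and 0.820% with 25(OH)D3 (0.814% to 0.826%). The 3 intervals did not overlap, and the order of the libraries was the same within complexes I, II, III and IV, cytochrome c and ATP synthase. In a bulk sample, fewer cells of a type and less RNA per cell cannot be told apart, so these shares do not say which cells held the messages. Of the 80 members, 75 were lowest in vehicle, 58 were highest with 20(OH)D3 and 21 with 25(OH)D3.

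**Figure D1:**
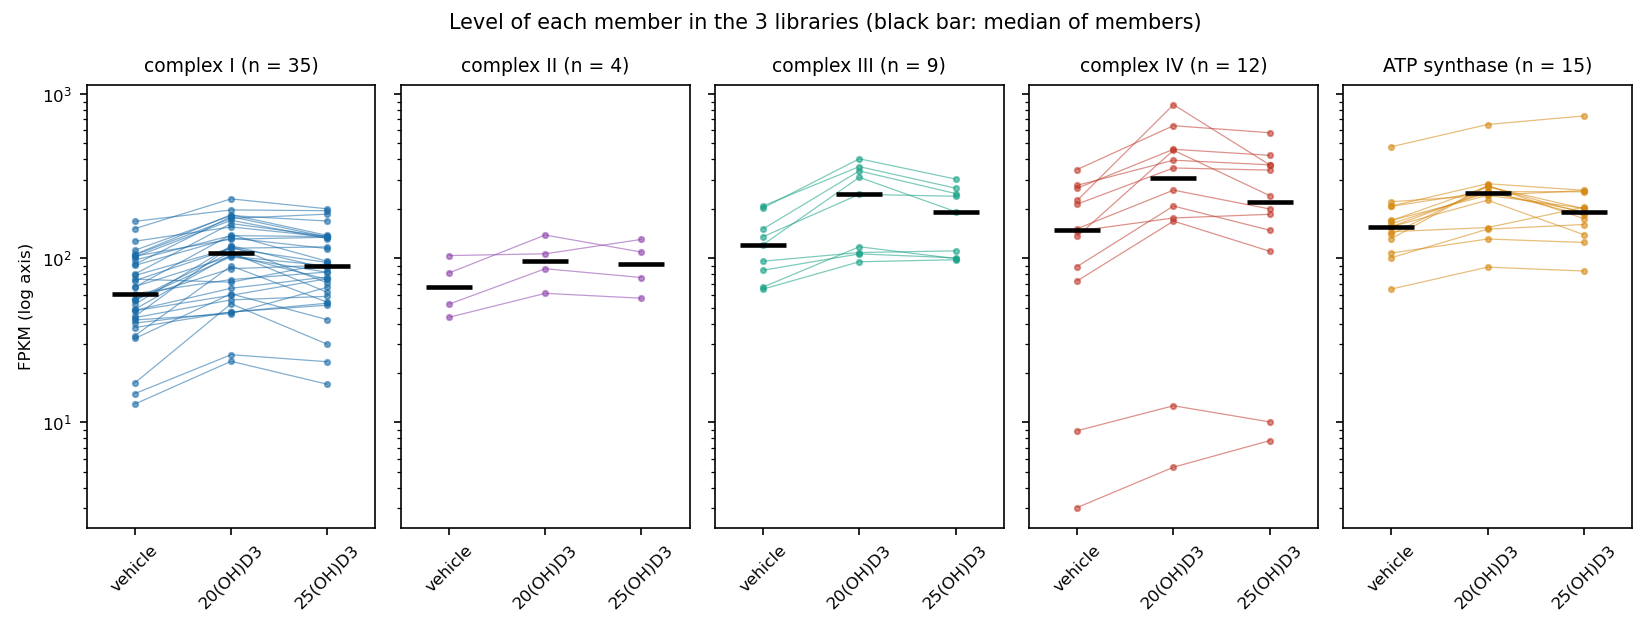
FPKM (log axis) of the members of complexes I, II, III and IV and ATP synthase past the filter (Cycs and the 4 related genes are not drawn) in the vehicle, 20(OH)D3 and 25(OH)D3 libraries, 1 line a gene and 1 panel a complex; black bars are medians. In each of these 5 panels the vehicle median is lowest and the 20(OH)D3 median highest, with complex IV moving from 149 to 307 FPKM.

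With 20(OH)D3, 45 of the 80 members (56.2%) were at least 1.5-fold above vehicle, where 10.8% of all loci were, and none was 1.5-fold below, where 3.34% of all loci were. The median log2 ratio of the members was 0.62, and that of all loci -0.03, with 78 members above 0 (against 46.9% of loci). A 2-fold difference was reached by 14 members (17.5%, against 4.18% of loci). The 95% counting interval of the ratio lay wholly above 1 for 73 members (against 21.5% of loci) and wholly below 1 for none (against 23.5%). The same library had more signal from fat: 15 of 15 adipocyte markers were at least 1.5-fold above vehicle, and their summed normalized counts were 26228, 98356 and 46421. The summed counts of the 13 T cell markers were 22458, 17067 and 23537. The part of these cell types in the members' ratios was not tested.

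By complex, the median log2 ratio with 20(OH)D3 was 0.61 in complex I, 0.54 in complex II, 0.81 in complex III, 0.79 in complex IV and 0.51 in ATP synthase. At least 1.5-fold higher were 20 of 35 members of complex I, 2 of 4 of complex II and 6 of 9 of complex III. In complex IV 8 of 12 were, and in ATP synthase 7 of 15, where 10.8% of all loci were. Summed over its members, complex IV was 1.94-fold above vehicle (95% interval 1.89 to 2.00) and ATP synthase 1.34-fold (1.31 to 1.36). Complex III was 1.58-fold (1.53 to 1.63) and complex II 1.33-fold (1.27 to 1.39), with complex I between them at 1.54-fold. The intervals of complex II and ATP synthase overlapped, and that of complex IV lay above those of the other complexes. By median, complex IV was not above complex III. No locus carried the symbol Cox4i1, so every value of complex IV leaves that subunit out.

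Within complex I, the 7 core subunits, which carry the flavin and the iron-sulphur clusters, differed less than the 28 accessory subunits around them. For the core the median log2 ratio was 0.39 and 2 of 7 were at least 1.5-fold higher, where 10.8% of all loci were. For the accessory subunits the median was 0.69 and 18 of 28 were. Among the core, Ndufs1, the largest subunit, had 647, 778 and 794 normalized counts and was 1.20-fold (1.08 to 1.34) with 20(OH)D3. Ndufv1, which binds the flavin and oxidizes NADH, had 412, 539 and 556 normalized counts and was 1.31-fold (1.15 to 1.49). Ndufs3 was the lowest of the complex, with 420.0, 480.5 and 543 normalized counts and a ratio of 1.14 (1.00 to 1.31), and its FPKM ratio, 0.959, lay on the other side of 1. The core genes thus sat modestly above vehicle with both compounds by normalized counts.

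The largest ratios of complex I were all in accessory subunits. Ndufb4 (chr16:37647169-37654453), a subunit of the membrane arm, had 100.3, 344 and 176 normalized counts, 3.43-fold (2.75 to 4.31) with 20(OH)D3. Ndufa5, in the matrix arm, had 130.3, 354 and 231 normalized counts, 2.71-fold (2.22 to 3.33). Ndufb6, another membrane arm subunit, had 139.7, 368 and 219 normalized counts, 2.64-fold (2.17 to 3.21). In all 3 genes the 20(OH)D3 library was far above both others, and the 25(OH)D3 library lay between. Ndufb3, with 264, 601 and 434 normalized counts, was 2.27-fold (1.97 to 2.63), and Ndufa13, also known as GRIM-19, a subunit needed for assembly of the complex, was 2.15-fold (1.92 to 2.40) with 455, 977 and 687 normalized counts. Ndufa10 was near the low end of the accessory subunits at 1.16-fold (1.03 to 1.29).

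Complex II has no mitochondrially encoded subunit and also works in the tricarboxylic acid cycle. Sdha, its flavoprotein, had 1946, 2222 and 2219 normalized counts, and Sdhb, the iron-sulphur subunit, 679.7, 1154 and 905. The membrane anchors Sdhc and Sdhd had 480.0, 723 and 695 and 420.0, 587 and 546. With 20(OH)D3 the ratio was 1.70 (1.54 to 1.87) for Sdhb, 1.51 (1.34 to 1.69) for Sdhc, 1.40 (1.23 to 1.59) for Sdhd and only 1.14 (1.07 to 1.21) for Sdha. The catalytic flavoprotein, the most abundant of the 4 by FPKM in vehicle, thus differed least from vehicle.

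Complex III was split in the same way as complex I. Its 4 core and catalytic members had a median log2 ratio of 0.43, and its 5 small subunits (Uqcrb, Uqcrq, Uqcrh, Uqcr10 and Uqcr11) one of 0.99. Each of the 5 was at least 1.5-fold higher, where 10.8% of all loci were. Uqcr11 had 278, 711 and 432 normalized counts, 2.56-fold (2.23 to 2.95) with 20(OH)D3, and Uqcr10 had 339, 758 and 543, 2.23-fold (1.97 to 2.54). Among the core and catalytic members, Cyc1, the cytochrome c1 heme protein, had 588, 1033 and 871 normalized counts and was 1.76-fold (1.59 to 1.95). Uqcrfs1, the Rieske iron-sulphur protein, had 667, 978 and 1002 and was 1.47-fold (1.33 to 1.62), and Uqcrc1, a scaffold core protein, was lowest at 1.11-fold (1.03 to 1.20). Cycs, the mobile carrier cytochrome c that also starts apoptosis once it is in the cytosol, had 249, 486 and 464 normalized counts and was 1.95-fold (1.67 to 2.27). It was lowest in vehicle and nearly level between the compounds.

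Complex IV held the member with the largest ratio of all. Cox6c had 706, 2464 and 1090.4 normalized counts, 3.49-fold (3.21 to 3.79) with 20(OH)D3. Its locus, chr15:35371545-35938246 in GRCm38, spans 567 kb in the deposited table, far longer than the gene itself. Ndufa4, first assigned to complex I and now counted with complex IV, had 454, 1361 and 718 normalized counts, 3.00-fold (2.70 to 3.34). For both genes the 20(OH)D3 library stood far above the other 2. Cox7b had 577, 1382 and 975 normalized counts, 2.40-fold (2.18 to 2.64), and Cox7a2 had 362, 836 and 543, 2.31-fold (2.04 to 2.62). The least different of the complex was Cox5a, a subunit bound to the matrix side, with 646, 775 and 809 normalized counts and 1.20-fold (1.08 to 1.33).

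ATP synthase was read by module, and the ranges of its modules overlapped, with both its highest and its lowest member in the peripheral stalk. The 5 subunits of the catalytic F1 head had a median log2 ratio of 0.45, the 4 of the peripheral stalk 0.30, the 3 genes of the c ring 0.62 and the 3 small membrane subunits 0.72. Atp5b, the catalytic beta subunit, had 4451, 6019 and 5116 normalized counts, 1.35-fold (1.30 to 1.41) with 20(OH)D3. It is the most abundant member by mean FPKM over the 3 libraries, highest with 20(OH)D3 by this unit and lowest in vehicle. Atp5j, coupling factor 6 of the stalk, was the highest of the complex with 525, 1117 and 680.0 normalized counts, 2.13-fold (1.92 to 2.36). Atp5o, the stalk subunit that confers oligomycin sensitivity, was the lowest with 1052, 1066 and 1375, 1.01 (0.930 to 1.10) with 20(OH)D3, an interval that holds 1, so no difference was detectable there.

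**Figure D2:**
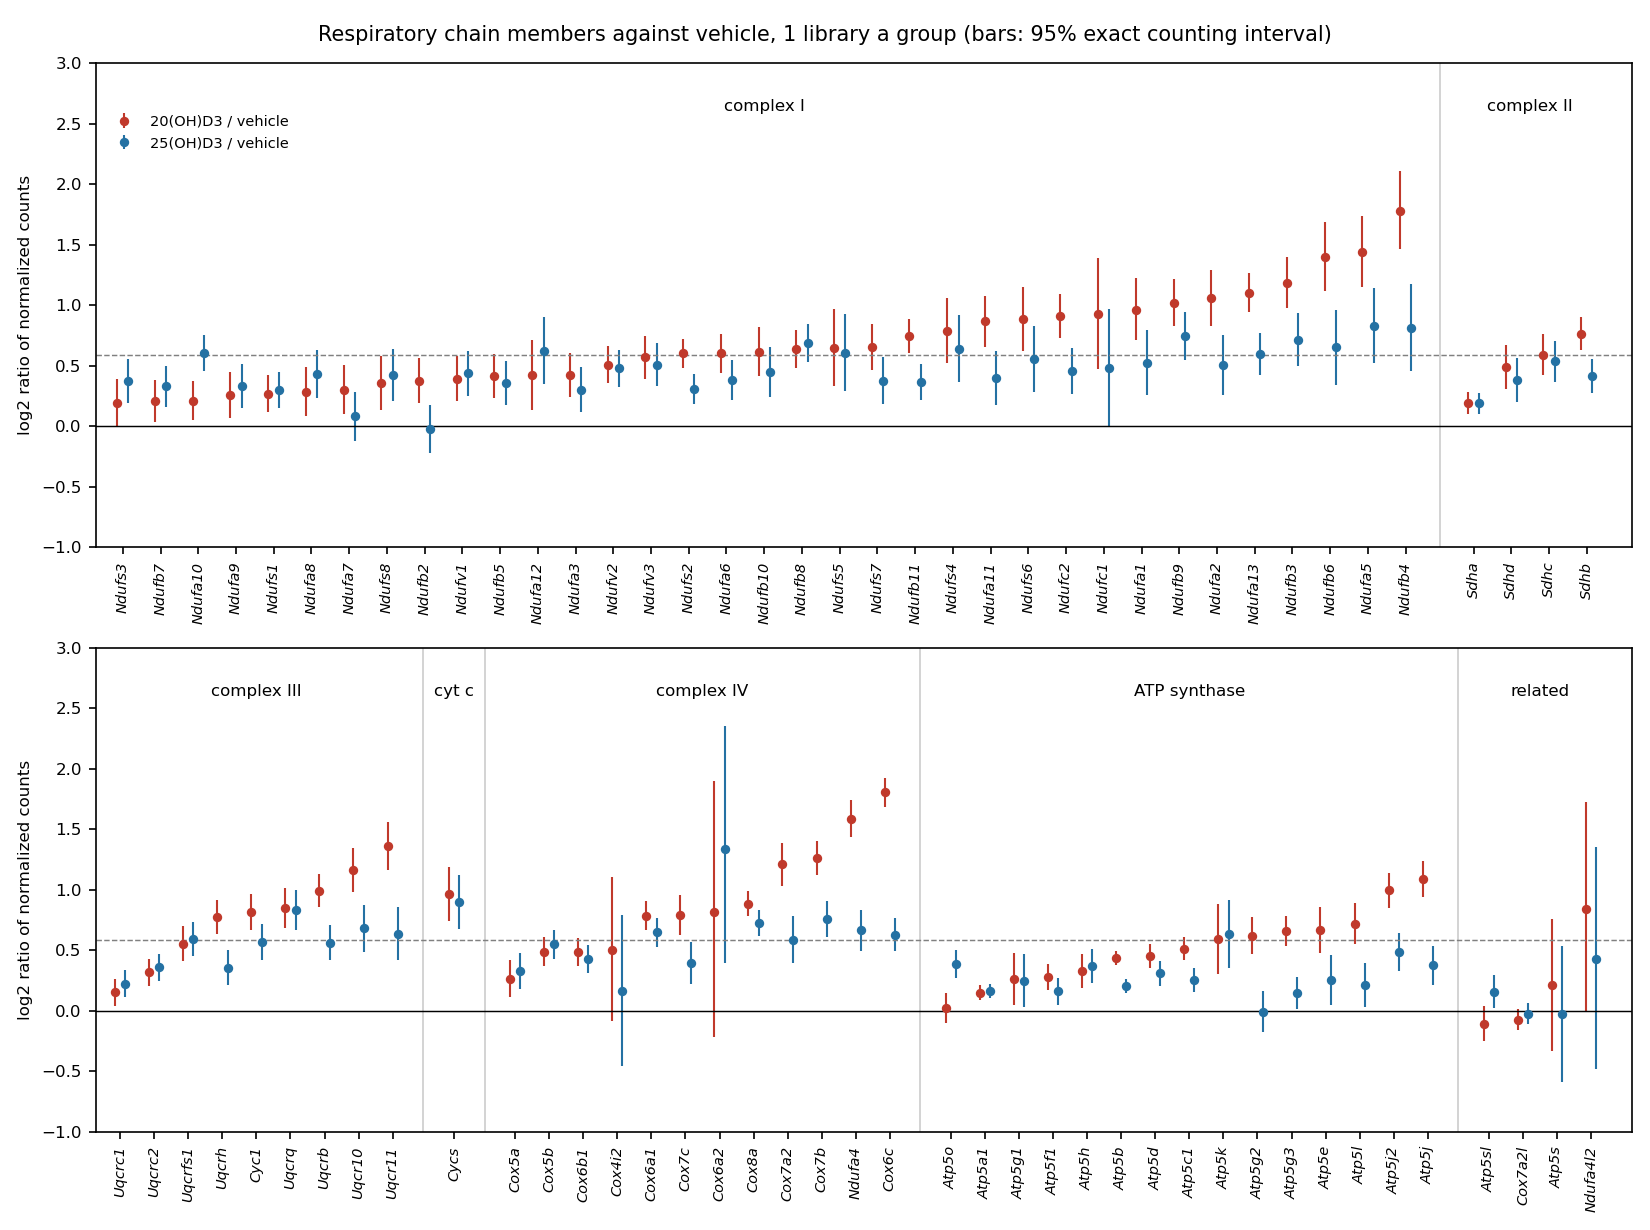
Log2 ratio of normalized counts to vehicle for each of the 80 members past the filter, 20(OH)D3 in red and 25(OH)D3 in blue, by complex and in order of the 20(OH)D3 ratio; bars are 95% exact counting intervals, the dashed line is 1.5-fold. Most points of both colours lie above 0, and the red points rise to 1.80 for Cox6c. Below 0 lie the red points of Atp5sl and Cox7a2l and the blue points of Ndufb2, Atp5g2, Cox7a2l and Atp5s.

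With 25(OH)D3, 23 of the 80 members (28.7%) were at least 1.5-fold above vehicle, where 4.14% of all loci were, and none was 1.5-fold below, where 2.80% of all loci were. The median log2 ratio was 0.42 for the members and 0.01 for all loci, with 76 members above 0 (against 52.1% of loci). A single member (1.25%, against 0.890% of loci), Cox6a2, reached 2-fold, at 14 reads in vehicle and 33 with 25(OH)D3. Its normalized counts were 13.1, 23.1 and 33.2, so it passed the filter of 20 through the library where it was high. The counting interval lay above 1 for 73 members (against 15.7% of loci) and below 1 for none (against 13.2%). Both comparisons use the same vehicle library, so they are not independent. Adipocyte markers had a median log2 ratio of 0.69 here, with 9 of 15 at least 1.5-fold higher, and brown fat markers (Ucp1, Cidea and others) one of 1.98 over the 6 of 7 past the filter. Their summed normalized counts were 584 in vehicle, 1999 with 20(OH)D3 and 2328 with 25(OH)D3, and their part in the members' ratios was not tested.

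By complex, the median log2 ratio with 25(OH)D3 was 0.46 in complex I, 0.40 in complex II, 0.57 in complex III, 0.61 in complex IV and 0.25 in ATP synthase. At least 1.5-fold higher were 11 of 35, 0 of 4, 4 of 9, 6 of 12 and 1 of 15, where 4.14% of all loci were. The counts of complex II and ATP synthase lay near that share. ATP synthase, with a summed ratio of 1.18 (1.15 to 1.20), stood closest to vehicle. The split inside complexes I and III had the same direction as with 20(OH)D3: the core of complex I had a median of 0.37 and its accessory subunits 0.50, while the core and catalytic members of complex III had 0.46 and its small subunits 0.64. The modules of ATP synthase were in another order, with the peripheral stalk at 0.37, F1 at 0.25 and the c ring at 0.14. Cycs was 1.86-fold (1.60 to 2.17), Uqcrq 1.78-fold (1.59 to 2.00) and Ndufa5 1.78-fold (1.43 to 2.21). These genes were lowest in vehicle in each case. Ndufb4 was 1.75-fold (1.37 to 2.25), Cox7b 1.69-fold (1.53 to 1.87), and Ndufb9 1.68-fold (1.46 to 1.92). At the other end, Ndufb2 had a ratio of 0.985 (0.858 to 1.13) and Atp5g2 one of 0.993 (0.884 to 1.12), both in merged loci, and both intervals hold 1. Sdha had the same ratio with either compound, 1.14 (1.07 to 1.21) with 25(OH)D3.

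At equal dose, 20(OH)D3 and 25(OH)D3 form the 1 pair of compounds compared. Both are vitamin D3 with 1 hydroxyl group on the side chain, at different carbons. At least 1.5-fold higher with 20(OH)D3 than with 25(OH)D3 were 9 of the 80 members (11.2%), close to the 9.24% of all loci, and 0 were 1.5-fold lower (3.96% of loci). The median log2 ratio was 0.19 for the members and -0.02 for all loci, with 58 members above 0 (against 47.3% of loci). The sum of the members was 1.15-fold higher with 20(OH)D3 (1.14 to 1.16), and 41 members had an interval above 1 (against 20.0% of loci), 3 one below 1 (against 22.6%). The members highest against 25(OH)D3 were small subunits: Cox6c was 2.26-fold (2.10 to 2.43), Ndufb4 1.95-fold (1.62 to 2.36) and Ndufa4 1.89-fold (1.73 to 2.08). Next came Ndufb6 with 1.68 (1.41 to 2.00), Uqcr11 with 1.65 (1.46 to 1.86), Atp5j with 1.64 (1.49 to 1.81), Atp5g2 with 1.55 (1.39 to 1.72), Cox7a2 with 1.54 (1.38 to 1.72) and Ndufa5 with 1.53 (1.29 to 1.81). These 9 are the members past the fold. Of all loci with transcripts of 57 to 1035 bases, a range that holds 52 members, 17.8% were past it. The members below 1 with an interval that excludes 1 were Ndufa10 with 0.760 (0.686 to 0.842), Atp5o with 0.775 (0.714 to 0.841) and Atp5sl with 0.833 (0.753 to 0.921). The core of complex I had a median of -0.03 and its accessory subunits 0.25, and the core and catalytic members of complex III -0.04 and its small subunits 0.43. For Sdha the ratio was 1.00 (0.943 to 1.06) and for Cycs 1.05 (0.919 to 1.19), both with intervals that hold 1.

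The genes with tissue-restricted relatives were read as pairs. Cox6a1, the widespread isoform, had 267, 461 and 423 FPKM, and Cox6a2, the heart and muscle isoform, 3.03, 5.34 and 7.75 FPKM from 14, 22 and 33 reads. Cox6a2 was 2.53-fold (1.32 to 5.11) with 25(OH)D3 and 1.76 (0.860 to 3.72) with 20(OH)D3, an interval that holds 1. Both isoforms were lowest in vehicle, Cox6a2 at few reads. Of 13 striated muscle markers, 12 had a locus and 4 passed the filter, as 12923 of all 46951 loci did. Myh1 and Myh4 were at 0 in all 3 libraries. The part of muscle in the Cox6a2 reads was not tested. Cox4i2, an isoform known from lung and hypoxic cells, had 8.90, 12.6 and 10.1 FPKM, with intervals that hold 1 against vehicle for either compound. It could not be paired with its relative Cox4i1, a symbol that no locus carried. Cox8a and Cox6b1, whose testis relatives Cox8c and Cox6b2 were below the filter, had ratios with 20(OH)D3 of 1.85 (1.71 to 1.99) and 1.40 (1.29 to 1.52).

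The c subunit of ATP synthase is made from 3 genes whose mature proteins are identical. By level, Atp5g3 had 169, 274 and 188 FPKM, Atp5g2 155, 226 and 139 and Atp5g1 64.9, 88.2 and 83.6. With 20(OH)D3 the ratio was 1.58 (1.45 to 1.72) for Atp5g3, 1.54 (1.38 to 1.71) for Atp5g2 and 1.20 (1.03 to 1.39) for Atp5g1. With 25(OH)D3 it was 1.11 (1.01 to 1.21), 0.993 (0.884 to 1.12) and 1.19 (1.02 to 1.38). Atp5g2 and Atp5g3 were thus higher in the 20(OH)D3 library than in both others, while Atp5g1 was about level between the compounds.

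The symbols also select 4 relatives past the filter that are not subunits of the complexes. Cox7a2l, described as a factor for supercomplexes of complexes III and IV, had 2197, 2085 and 2158 normalized counts. Its ratios were 0.949 (0.894 to 1.01) for 20(OH)D3 and 0.982 (0.926 to 1.04) for 25(OH)D3. Whether it has that function in these mice was not measured. Its relative Cox7a2 is described above with the largest ratios of complex IV. Atp5sl, a complex I assembly factor despite its symbol, had 798, 741 and 889 and ratios of 0.928 (0.839 to 1.03) and 1.11 (1.01 to 1.23). These 2 were the members below vehicle with 20(OH)D3, by less than their counting error. Atp5s had 58, 60 and 53 reads, and Ndufa4l2, a relative of Ndufa4 known as a hypoxia-induced gene, had 20, 32 and 25 reads and a ratio of 1.79 (0.993 to 3.30) with 20(OH)D3. The median log2 ratio of the 4 was 0.07 with 20(OH)D3 and 0.07 with 25(OH)D3.

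Respiratory chain messages are short, and in these libraries the ratio varied with length across all loci. The members' median transcript length was 745 bases, against 2676.5 for all loci with a length, and 51 of 79 members were at most 1000 bases long, as 9.48% of loci were. When all loci were put in 10 bins of equal size by length, the bin of shortest transcripts (57 to 1035 bases) had a median log2 ratio of 0.24 with 20(OH)D3 and 0.16 with 25(OH)D3, and the bin of longest transcripts -0.15 and -0.12. The 52 members in the bin of shortest transcripts had medians of 0.77 and 0.47. The 45 members past 1.5-fold with 20(OH)D3 had a median length of 606 bases and the others 1134.25. Spearman's rho between length and log2 ratio with 20(OH)D3 was -0.43 over 79 members and -0.26 over 12621 loci, given as a description, since genes of 1 library share its depth and preparation. With 25(OH)D3 it was -0.23 and -0.31, and between the compounds -0.37 and -0.06. With the running median over length taken off, the members' median was 0.42 with 20(OH)D3, 0.28 with 25(OH)D3 and 0.14 between the compounds. At least 1.5-fold higher were then 27, 6 and 5 of 79 members, where 10.2%, 3.29% and 9.40% of loci were.

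Cytosolic ribosomal protein messages, which are as short as the members (median 792 bases), had medians of 0.14 with 20(OH)D3 and 0.11 with 25(OH)D3 over 81 genes. At least 1.5-fold higher were 10 and 0 of them, where 10.8% and 4.14% of all loci were. In the bin of shortest transcripts the shares of loci were 27.9% and 9.01%. Cycs, with 3123 bases the longest transcript of the members, was at 0.96 and 0.89, and Sdha, with 2900, at 0.19 and 0.19. The core subunits of complex I had a median length of 1312 bases and the accessory ones 674.5, and in complex III the values were 1586.5 and 474.5, so subunit class and length moved together, and which of them goes with the ratio cannot be told apart here.

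**Figure D3:**
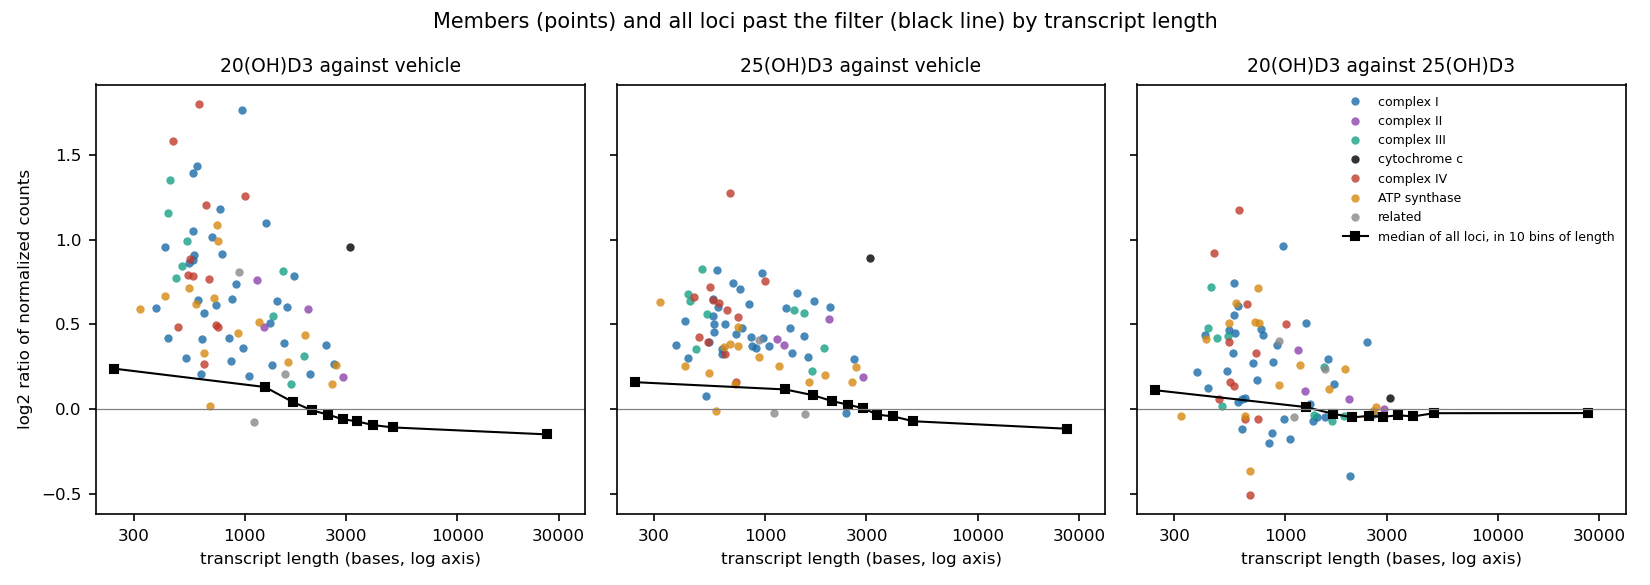
Log2 ratio of normalized counts of each member (points, coloured by complex) against transcript length in bases (log axis), for the 3 comparisons; the black line joins the medians of all loci in 10 bins of length, drawn at the geometric mean of each bin's ends. The line falls from 0.24 to -0.15 with 20(OH)D3, and most members lie above it.

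Other lists of nuclear-encoded mitochondrial genes were above vehicle by smaller medians than the respiratory chain members. With 25(OH)D3, however, the median of the tricarboxylic acid cycle enzymes was nearly level with that of the members. The summed ratio of these enzymes with 25(OH)D3 was 1.40 (1.37 to 1.43), above the 1.29 (1.28 to 1.30) of the members. All 13 enzymes of the tricarboxylic acid cycle were above 0 with either compound, with medians of 0.33 with 20(OH)D3 and 0.41 with 25(OH)D3. Of these enzymes, 4 and 2 were at least 1.5-fold higher, where 10.8% and 4.14% of all loci were. Idh3a, the catalytic subunit of NAD-dependent isocitrate dehydrogenase, had 31.1, 60.9 and 55.6 FPKM. Import components had medians of 0.29 and 0.33 over 17 genes, mitochondrial ribosomal proteins 0.25 and 0.19 over 77, complex I assembly factors 0.26 and 0.27 over 14, and assembly factors of the other complexes 0.34 and 0.22 over 34. Cristae and carrier proteins had 0.16 and 0.18 over 15 genes, and glycolytic enzymes 0.19 and 0.28 over 13. The lists of this paragraph have longer transcripts than the members, whose median is 745 bases. Their medians run from 1316 bases (mitochondrial ribosomal proteins) to 2491.5 (tricarboxylic acid cycle enzymes). Length was not taken off for these lists, so their order against the members is not adjusted for it.

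Regulators of mitochondrial biogenesis had a median log2 ratio of 0.05 with either compound over 12 genes, with single genes on both sides. Nrf1 had 18.3, 17.6 and 18.5 FPKM, Tfam, which packages and transcribes mitochondrial DNA, 24.0, 27.5 and 25.5 FPKM, and Esrra, the receptor ERR alpha, 20.2, 20.7 and 22.3 FPKM. By normalized counts, Nrf1 had a ratio of 0.835 (0.720 to 0.966) with 20(OH)D3 and 0.991 (0.863 to 1.14) with 25(OH)D3, and the intervals of Tfam and Esrra held 1 with either compound. Ppargc1a, the coactivator PGC-1 alpha, was the highest of the list at few reads (29, 63 and 56), with ratios of 2.43 (1.54 to 3.91) and 2.07 (1.30 to 3.37). Its relative Ppargc1b had ratios of 1.56 (1.08 to 2.27) and 1.62 (1.13 to 2.34). Gabpb1, a subunit of the ETS factor GABP, was the lowest with 20(OH)D3 at 0.703 (0.607 to 0.814) and was at 1.01 (0.887 to 1.15) with 25(OH)D3, and Pprc1 was at 0.744 (0.665 to 0.833) and 0.936 (0.843 to 1.04). Of the mitochondrially encoded subunits, mt-Cytb of complex III had 8271, 12018 and 16331 FPKM, so it was highest with 25(OH)D3, unlike most nuclear members. The locus that merges mt-Nd1 and mt-Nd2 with ribosomal RNA genes had 12412, 17112.5 and 23889 FPKM, and the other mitochondrially encoded subunits are listed at 0. The files thus hold no level for most of them.

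**Figure D4:**
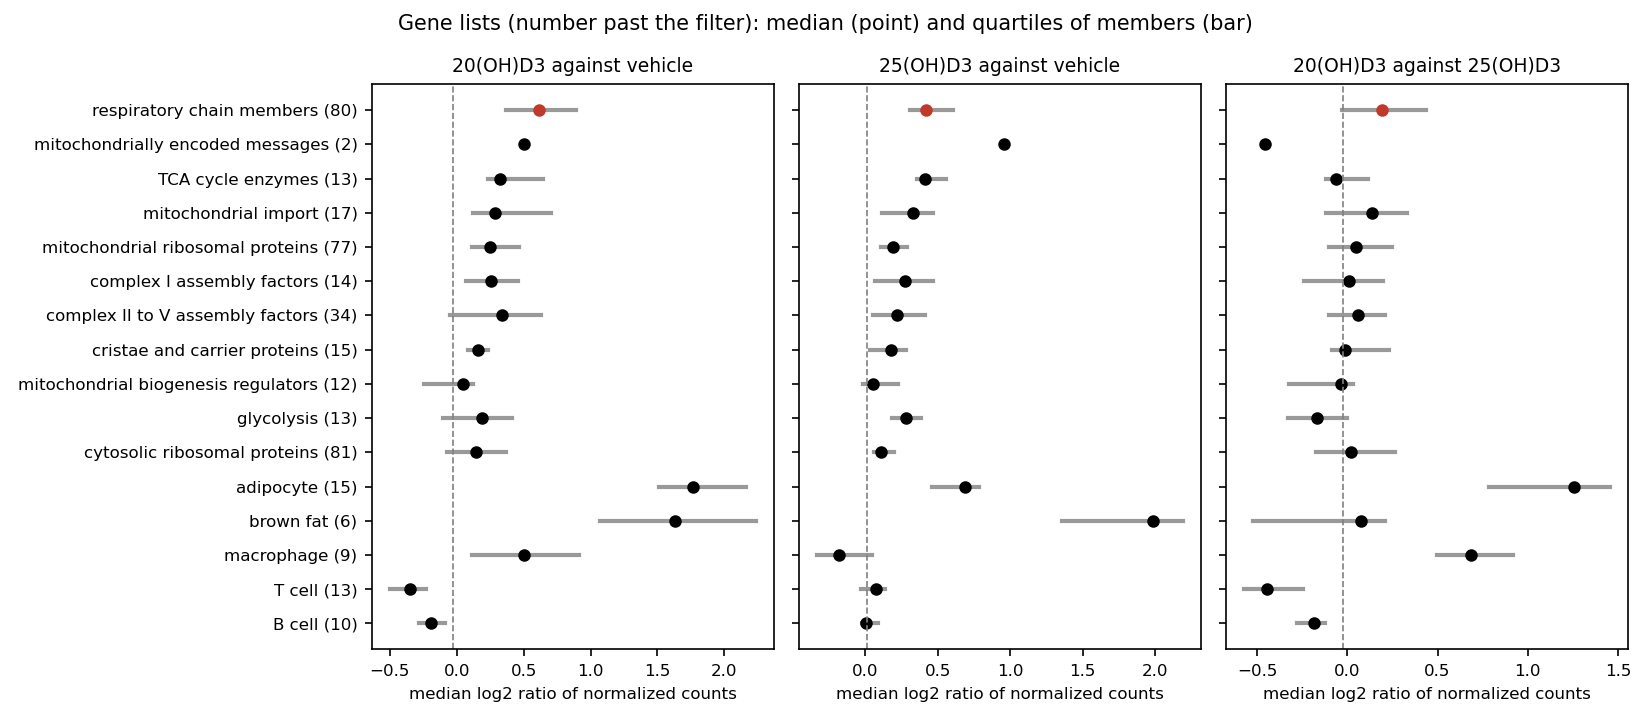
Median (point) and quartiles (bar) of the log2 ratio of normalized counts for the respiratory chain members (red) and other gene lists (black), in the 3 comparisons, with the number of genes past the filter; the dashed line is the median of all loci. The members' median lies at 0.62, 0.42 and 0.19, and adipocyte markers at 1.77, 0.69 and 1.25.

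Markers of other cell types differed between the same libraries. Adipocyte markers ran from 1.24 (Pnpla2) to 2.56 (Cfd) in log2 ratio with 20(OH)D3 and from -0.01 (Lep) to 1.59 (Pparg) with 25(OH)D3. Of the brown fat markers, Ucp1, the uncoupling protein, had 12.4, 44.3 and 44.8 FPKM, and Cidea 28.4, 77.0 and 125 FPKM. The lowest marker with 20(OH)D3 was Dio2 at 0.906 (0.449 to 1.80), which was at 2.35 (1.37 to 4.15) with 25(OH)D3. Prdm16 was the lowest with 25(OH)D3 at 1.07 (0.670 to 1.72) and was at 1.95 (1.30 to 2.97) with 20(OH)D3. The brown fat isoforms left out by the rule, Cox8b and Cox7a1, had 66.1, 373 and 327 FPKM and 10.4, 56.8 and 52.7 FPKM. Macrophage markers had medians of 0.51 with 20(OH)D3 and -0.18 with 25(OH)D3 over the 9 of 10 genes past the filter. Erythroid markers had 1.53 and 0.53 over 5 of 7, and neutrophil markers 1.35 and 3.29 over 3 of 9. All 9 neutrophil markers summed to only 51.6, 146 and 417 normalized counts. At such levels a gene can pass the filter through the library where it is high, so the neutrophil medians are partly set by the filter. Striated muscle markers had medians of 0.42 and 0.05 over 4 genes. T cell markers were at -0.35 and 0.07 over 13 genes, and B cell markers at -0.19 and 0.01 over 10. In the order of libraries, the adipocyte sum followed the members (vehicle lowest, 20(OH)D3 highest), and the brown fat sum was highest with 25(OH)D3. The order of the adipocyte sum was not particular to fat. The erythroid sum (371, 1113 and 523 normalized counts), the striated muscle sum (796, 929 and 856) and the cytosolic ribosomal protein sum (498479, 561497 and 540372) had it too. Their part in the members' ratios was not tested.

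Ratios of FPKM and of normalized counts were close for most members. The FPKM ratio divided by the count ratio ran from 0.838 (Ndufs3) to 1.49 (Ndufb2) with 20(OH)D3, from 0.900 (Atp5g2) to 1.34 (Atp5b) with 25(OH)D3 and from 0.753 (Atp5b) to 1.33 (Ndufb2) between the compounds, so no member parted by 1.5-fold. By FPKM, 45 members were at least 1.5-fold above vehicle with 20(OH)D3 (against 9.41% of loci) and 28 with 25(OH)D3 (against 3.48%). Atp5b was 1.18-fold higher with 20(OH)D3 than with 25(OH)D3 by counts and 0.886-fold by FPKM, so its order between the compounds depends on the unit.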

How the data were processed

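RNA from 3 libraries was measured by sequencing. The submitters' notes on processing list GRCm38 and, as tools with no role given, STAR 2.7.0c together with Cufflinks 2.2.1, Cuffdiff, and also Cuffnorm. The authors deposited FPKM and normalized counts per locus. The deposited normalized count, a signal per locus scaled by the authors, equals whole reads times 1 factor a library (0.938, 1.05 and 1.01), and reads came out whole within 0.02 for 99.9% of loci, less surely for 25(OH)D3, whose factor is near 1. Ratios were log2 of normalized counts plus 1, over loci whose mean normalized count was 20 or more, and single ratios had no pseudocount and an exact 95% Clopper-Pearson interval on reads. A difference was counted from 1.5-fold. Transcript length was the median over GENCODE M21 basic protein-coding transcripts, matched by symbol, or over other transcripts where a symbol had none. A member locus took the length of its member symbol, and any other merged locus that of its longest symbol. Python 3.11.15, pandas 2.3.3, numpy 2.4.6 and scipy 1.17.1 were used, and the scripts were tested on simulated data. Named members were, per comparison, the highest and lowest of each complex, those past the fold (at most the 12 farthest), core subunits, isoform pairs, and members whose FPKM and count ratios part by 1.5-fold. Of other lists, the highest and lowest were to be named, and Nrf1, Tfam, Esrra, Ppargc1b, Pprc1, Ucp1 and Cidea were added after their values were seen. Members and lists were chosen with earlier results of these data known. Alternatives covered unit, pseudocount, filter, scaling, fold, merged loci and transcript length. 2 empty lines of the table were not analysed here.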

Additional observations from a re-analysis of the deposited data

How the results depend on the processing

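The members' median log2 ratio kept its sign in each comparison under every alternative that can move it, which the 2-fold threshold and the grouping of complexes by symbol cannot. With 20(OH)D3 the count of members at least 1.5-fold above vehicle, 45, was 29 by TPM (against 6.62% of loci) and 14 at 2-fold (4.18%). It was 27 with the running median over transcript length taken off (10.2%), and 1 member was lower with no filter (13.8%). With 25(OH)D3 the count, 23, was 14 when scaled to the library total (against 3.29% of loci) and 7 by TPM (2.24%). It was 1 at 2-fold (0.890%) and 6 over length (3.29%), and 2 members were lower with no filter (13.9%). Between the compounds the 9 became 1 at 2-fold (against 3.03% of loci), 5 over length (9.40%) and 14 with the running median over mean count taken off (8.46%). Lower was 1 member with either running median, where 3.82% of loci were over length and 4.72% over mean count. The median of the 4 related genes with 25(OH)D3 reversed to -0.13 over length. As a ratio of FPKM, Ndufs3 with 20(OH)D3 reversed to 0.959 and Atp5b between the compounds to 0.886. The cause was not tested. TPM moved the median of all loci from -0.03 to -0.19 with 20(OH)D3 and from 0.01 to -0.12 with 25(OH)D3. The members' median less that of all loci was 0.64 and 0.67 with 20(OH)D3, and 0.41 and 0.39 with 25(OH)D3. Of all loci past the fold, 76.4% were higher with 20(OH)D3 and 43.0% by TPM. With 25(OH)D3 the share was 59.6%, 47.3% when scaled to the library total and 33.8% by TPM. No paired analysis was possible because each group is 1 library. With 1 library a group, depth limits only the counting error.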
